A study of Mus musculus with 6 samples.

Results

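IL-6 family cytokines and colony-stimulating factors are secreted proteins through which epithelial and tumor cells act on themselves and on immune cells. Cytokines of the IL-6 family signal through receptor complexes that contain the shared chain gp130, encoded by Il6st, and activate JAK kinases and the transcription factor STAT3. The colony-stimulating factors drive the survival, growth and maturation of macrophages and granulocytes, and thymic stromal lymphopoietin, encoded by Tslp, is made by skin epithelium and acts on dendritic cells and lymphocytes. The 10 genes described here, chosen by Ensembl identifier, are the ligand genes Il6, Il11 and Lif, the receptor genes Osmr and Il6st, the colony-stimulating factor genes Csf1, Csf2 and Csf3, Il34, and Tslp. All 10 were found among the 17204 genes of the array table.

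The values come from mouse skin squamous cell carcinoma (SCC) cells of FVB background and genotype K14CreER FAKflox/flox, in which Cre recombinase is driven by a keratin 14 promoter and activated by tamoxifen. SCC FAK-/- is a single clone from these cells that lost focal adhesion kinase (FAK), a kinase of integrin signaling, after 4-hydroxytamoxifen, and SCC FAK-wt is that clone after retroviral re-expression of wild-type FAK. Total RNA from 3 biological replicates of each line was measured on 6 Affymetrix GeneChip arrays, so the comparison asks which of these transcripts differed with FAK in cultured cells. The labels state that lines re-expressing FAK-wt were kept in 0.25 mg/ml hygromycin and give no drug for SCC FAK-/- cells, whereas the study's methods can be read as selection of all lines, so whether the lines differed in drug is not settled. FAK and the retrovirus that carries it cannot be told apart. Differences are between 1 clone and its 1 derivative line, and with bulk RNA, fewer cells that express a gene and less RNA per cell cannot be told apart.

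Expression is given on the log2 scale of Robust Multi-array Average (RMA) values, on which a difference of 1 unit is a 2-fold change. The medians of the 6 arrays lay between 5.90 and 5.97, and the interquartile ranges between 3.997 and 4.16. Between replicates of the same line, the median absolute difference over genes was 0.15 to 0.18 log2 units. FAK itself and markers of epithelial or other cells are not analysed here, because identifiers were paired with names for the 10 genes alone. Signal on an array depends on the probes, so the levels below are compared between lines for a gene and not between genes.

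Csf1 was the only gene of the 10 that rose or fell between the lines after adjustment over all genes. Csf1 (ENSMUSG00000014599) encodes macrophage colony-stimulating factor, the growth and survival factor of macrophages that acts through the receptor CSF1R. Its log2 expression in SCC FAK-wt cells was 10.11, 9.93 and 9.91 for replicates 1 to 3, and in SCC FAK-/- cells 8.87, 8.94 and 9.29, and the values of every other gene follow the same order. Every SCC FAK-wt array was higher than every SCC FAK-/- array, and the SCC FAK-/- array nearest to the other line was replicate 3. The means were 9.98 ± 0.11 (SD, n = 3) in SCC FAK-wt and 9.03 ± 0.22 (SD, n = 3) in SCC FAK-/- cells. In log2 terms the difference was 0.95 with a standard error of 0.14 (adjusted p = 0.0238, limma and Benjamini-Hochberg), which is a 1.93-fold higher level in SCC FAK-wt cells (95% confidence interval 1.54 to 2.41). This difference exceeded the range of the replicates, which was 0.20 log2 units in SCC FAK-wt and 0.41 in SCC FAK-/- cells. The direction held with each of the 6 arrays left out in turn, with log2 fold changes of 0.87 to 1.07, but the limma adjusted p was 0.0561 to 0.0922 when SCC FAK-wt replicate 1, 2 or 3 or SCC FAK-/- replicate 1 or 2 was left out, and 0.0256 without SCC FAK-/- replicate 3. With an ordinary linear model per gene it was 0.128.

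The call of 1 member of 10 as higher stands beside 0.820% of all 17204 genes called higher at an adjusted p under 0.05, and no member was called lower (0 of 10), beside 1.10% of all genes. In either direction, 1.92% of all genes were called at this threshold. At an unadjusted p under 0.05 by limma, 2 members were lower in SCC FAK-wt cells, Il11 and Il6st, beside 7.74% of all genes, and 1 was higher, Csf1, beside 7.76%. The study's threshold was a p under 0.01, with no adjustment stated, and at an unadjusted p under 0.01, here called the looser threshold, 1 member was higher (Csf1; 3.19% of all genes were) and 1 was lower (Il11; 3.66% of all genes were), where 6.85% of all genes passed in either direction. In 3 of the 10, Csf1, Il11 and Il6st, the arrays of the lines did not overlap, and the same was true of 21.5% of all genes. The median log2 fold change was -0.08 over the 10 members and 0.02 over all genes, and the median absolute log2 fold change was 0.14 in both. The members were chosen with results of these arrays known, and these shares describe them without a test.

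**Figure D1:**
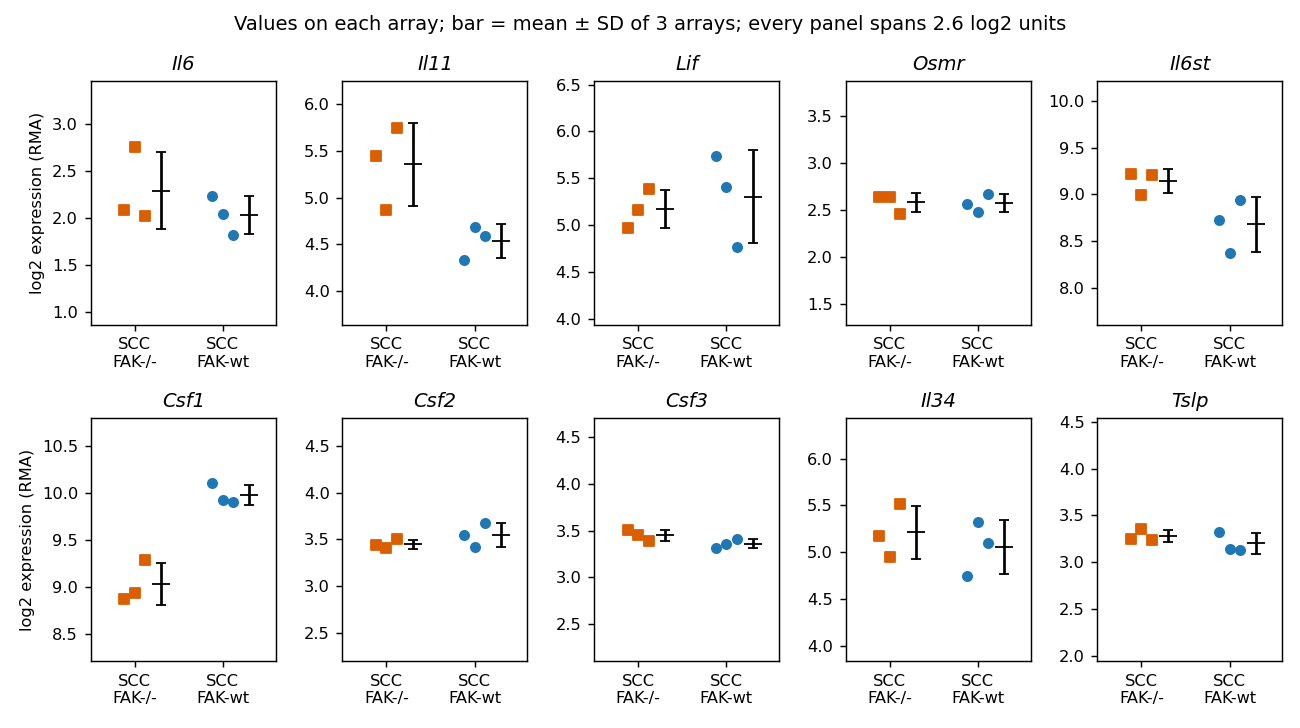
Log2 RMA expression of each gene on every array, with squares for the 3 SCC FAK-/- arrays, circles for the 3 SCC FAK-wt arrays and a bar for the mean ± SD, on vertical axes of equal span. The Csf1 arrays of SCC FAK-wt cells sit between 9.91 and 10.11, above the highest SCC FAK-/- array at 9.29, whereas Il11 and Il6st are displaced the other way and the remaining 7 genes overlap.

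The sequence upstream of Csf1 is shown because Csf1 carries the difference, and that of Il11 because it was lower at the unadjusted threshold. Both are the 250 bases before an annotated transcription start in RefSeq (GRCm38.p6), read 5′ to 3′ on the strand of the gene, which is the minus strand for both. The first covers chr3:107760470-107760719 and the second chr7:4778142-4778391, before the more downstream of the 2 starts listed for Il11. Capitals mark matches to the motif letters that were searched.
Csf1: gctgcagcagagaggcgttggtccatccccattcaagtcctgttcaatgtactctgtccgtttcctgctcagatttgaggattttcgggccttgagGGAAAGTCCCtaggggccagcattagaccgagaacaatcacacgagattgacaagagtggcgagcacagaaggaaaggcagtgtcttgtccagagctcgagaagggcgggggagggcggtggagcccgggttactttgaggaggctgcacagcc
Il11: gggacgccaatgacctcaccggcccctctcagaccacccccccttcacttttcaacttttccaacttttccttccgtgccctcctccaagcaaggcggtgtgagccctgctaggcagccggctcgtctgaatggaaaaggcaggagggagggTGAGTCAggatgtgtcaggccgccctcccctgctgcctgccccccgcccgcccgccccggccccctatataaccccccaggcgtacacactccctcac

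The motifs were searched on both strands: GGG followed by any 2 bases and TTTCC for NF-kB, TGANTCA for AP-1, TTCNNNGAA for STAT factors and TATAAA for the TATA box, where N is any base. The capitals in the Csf1 sequence are an NF-kB match on the opposite strand that begins 154 bases before the start, and those in the Il11 sequence are an AP-1 match that begins 98 bases before it. The NF-kB letters were found in 1.41% of the 32851 promoters searched over the same length, and in Csf1 and Il6 of the 7 members with a promoter listed. The shares of all promoters count single promoters. Members are instead counted as genes with a match at any listed start, of which Il11 has 2, so the units differ. The AP-1 letters were found in 6.75% of all promoters, and in Il6, Lif and the printed Il11 promoter. The promoter of the other Il11 start, chr7:4782858-4783107 on the minus strand, held no match to any of the motifs. Which of the 2 Il11 starts these cells use was not tested. The STAT letters, held by 7.02% of all promoters, and the TATA letters, held by 12.4%, were in none of the 7. Only the exact letters TATAAA were searched, and the similar run tatataa near the end of the printed Il11 sequence was not counted. The absence of these letters therefore does not show that a promoter lacks a TATA box. These matches describe the sequence and are no evidence of binding.

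The other ligand gene of CSF1R in this set, Il34 (ENSMUSG00000031750), did not pass either threshold. IL-34 binds the same receptor as macrophage colony-stimulating factor and is made by keratinocytes of the skin. Its log2 expression was 4.75, 5.32 and 5.10 in SCC FAK-wt and 5.17, 4.95 and 5.51 in SCC FAK-/- cells, so that the lines overlapped. With a log2 fold change of -0.15, its 95% confidence interval was -0.61 to 0.30 (limma adjusted p = 0.786), and the log2 fold change was 0.00063 without SCC FAK-wt replicate 1. Subtracting Il34 from Csf1 on each array cancels any scaling shared by the 2 genes. Csf1 minus Il34 was 5.36, 4.60 and 4.80 log2 units in SCC FAK-wt and 3.70, 3.98 and 3.78 in SCC FAK-/- cells. All 3 SCC FAK-wt values were higher, by 1.10 log2 units on average (exact permutation test, two-sided, p = 0.1, the smallest p that 3 arrays against 3 allow, and 0.25 after Benjamini-Hochberg adjustment over the 5 pairs of members compared).

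Csf2 (ENSMUSG00000018916) and Csf3 (ENSMUSG00000038067) encode granulocyte-macrophage and granulocyte colony-stimulating factor, which act on myeloid cells. Csf2 was at 3.55, 3.42 and 3.68 in SCC FAK-wt and 3.44, 3.40 and 3.50 in SCC FAK-/- cells, and Csf3 at 3.31, 3.36 and 3.41 against 3.50, 3.46 and 3.38. In both genes the lines overlapped. Their log2 fold changes were 0.10 for Csf2 (95% confidence interval -0.14 to 0.35) and -0.09 for Csf3 (-0.31 to 0.13), and the limma adjusted p was 0.730 and 0.745. All of their values lay below 3.996, the lower quartile of the whole table, where RMA values can understate a change.

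Il11 (ENSMUSG00000004371) had the most negative log2 fold change of the 10 genes, and it did not pass the adjusted threshold. Interleukin-11 signals through its own receptor chain together with gp130. Its log2 expression was 4.33, 4.68 and 4.59 in SCC FAK-wt and 5.45, 4.87 and 5.74 in SCC FAK-/- cells. Every SCC FAK-wt array was lower than every SCC FAK-/- array, and SCC FAK-/- replicate 2 was the array nearest to the other line, at 4.87 against 4.68 in SCC FAK-wt replicate 2. The means were 4.53 ± 0.18 (SD, n = 3) and 5.35 ± 0.44 (SD, n = 3). The difference of -0.82 had a standard error of 0.22, an unadjusted p of 0.00757 and an adjusted p of 0.127 by limma. On the linear scale Il11 was 1.76-fold higher in SCC FAK-/- cells, with a 95% confidence interval of 1.23 to 2.54. Without SCC FAK-/- replicate 2 the log2 fold change was -1.06 and the limma adjusted p 0.0628, and without SCC FAK-/- replicate 3 they were -0.62 and 0.277. After each of the 3 further scalings of the arrays the unadjusted limma p was 0.0116 to 0.0156, so that Il11 no longer met the looser threshold.

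Il6st (ENSMUSG00000021756), the gene of the shared signaling chain gp130, also had lower values in SCC FAK-wt cells. It passed neither the adjusted nor the looser threshold, only an unadjusted p under 0.05. It was at 8.73, 8.37 and 8.94 in SCC FAK-wt and 9.22, 8.99 and 9.21 in SCC FAK-/- cells. The lines did not overlap, but the highest SCC FAK-wt array and the lowest SCC FAK-/- array were only 8.94 and 8.99. The means were 8.68 ± 0.29 (SD, n = 3) and 9.14 ± 0.13 (SD, n = 3). Their difference of -0.46 had a standard error of 0.16, an unadjusted p of 0.0244 and an adjusted p of 0.232 by limma. This was a 1.37-fold higher level in SCC FAK-/- cells (95% confidence interval 1.06 to 1.79), smaller than the range of 0.57 log2 units among the SCC FAK-wt arrays. With an ordinary linear model per gene the unadjusted p of Il6st was 0.0665. By limma it was 0.0623 to 0.0722 without SCC FAK-wt replicate 2 or SCC FAK-/- replicate 1 or 3. It was under 0.05 in every other setting.

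Osmr (ENSMUSG00000022146) encodes the chain that pairs with gp130 to bind oncostatin M. Its values were 2.57, 2.48 and 2.67 in SCC FAK-wt and 2.64, 2.64 and 2.46 in SCC FAK-/- cells, and the lines overlapped. Its log2 fold change was -0.01 (95% confidence interval -0.26 to 0.24, limma adjusted p = 0.984) and turned to 0.02 when each array was centered on its median. SCC FAK-/- replicates 1 and 2 held exactly the same value, as 459 genes (2.67%) of the table did on at least 2 arrays. The mean signal of Osmr was above that of 6.53% of the genes in the table, which describes the probes and is no measure of transcript amount.

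Lif (ENSMUSG00000034394) encodes leukemia inhibitory factor, which signals through its own receptor and gp130. Its log2 expression was 5.74, 5.41 and 4.76 in SCC FAK-wt and 4.97, 5.16 and 5.39 in SCC FAK-/- cells. The SCC FAK-wt arrays spanned the whole SCC FAK-/- range, from SCC FAK-wt replicate 1 as the highest of the 6 to replicate 3 as the lowest. Between the means the difference was 0.13, with a 95% confidence interval of -0.45 to 0.71 (limma adjusted p = 0.869), and it was -0.09 without SCC FAK-wt replicate 1. Il11 minus Lif was -1.41, -0.73 and -0.18 in SCC FAK-wt and 0.47, -0.29 and 0.36 in SCC FAK-/- cells, with overlap between the lines (exact permutation test, two-sided, p = 0.2, adjusted 0.3).

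Il6 (ENSMUSG00000025746) encodes interleukin-6, the founding cytokine of the family. Its values were 2.23, 2.04 and 1.82 in SCC FAK-wt and 2.09, 2.76 and 2.02 in SCC FAK-/- cells. SCC FAK-/- replicate 2 was higher than the other 5 arrays, which overlapped between the lines. The log2 fold change was -0.26 (95% confidence interval -0.76 to 0.25, limma adjusted p = 0.654), and without SCC FAK-/- replicate 2 it was -0.02. The mean signal of Il6 was above that of 2.26% of the genes in the table. Of the other pairs compared, Il6st minus Osmr was 6.16, 5.89 and 6.27 in SCC FAK-wt and 6.58, 6.35 and 6.75 in SCC FAK-/- cells. For this pair the lines did not overlap, and the p was 0.1 (exact permutation test, two-sided, the smallest possible), or 0.25 after adjustment. Il11 minus Il6 and Il11 minus Il6st overlapped between the lines, with an adjusted p of 0.3 and 0.3 by the same test. No pair could reach an adjusted p under 0.05 in this test, so its p-values cannot decide whether a pair differed.

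Tslp (ENSMUSG00000024379) was at 3.33, 3.15 and 3.14 in SCC FAK-wt and 3.25, 3.36 and 3.24 in SCC FAK-/- cells. SCC FAK-wt replicate 1 lay within the SCC FAK-/- range and the other SCC FAK-wt arrays below it. For Tslp the log2 fold change was -0.08, with a 95% confidence interval of -0.32 to 0.16 (limma adjusted p = 0.792). Tslp, Il6, Osmr, Csf2 and Csf3 are the 5 members whose mean lay below the lower quartile of all values, and 3 more, Il11, Lif and Il34, had means between it and the median of 5.95. Csf1 and Il6st were the only members above the upper quartile of 8.08.

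**Figure D2:**
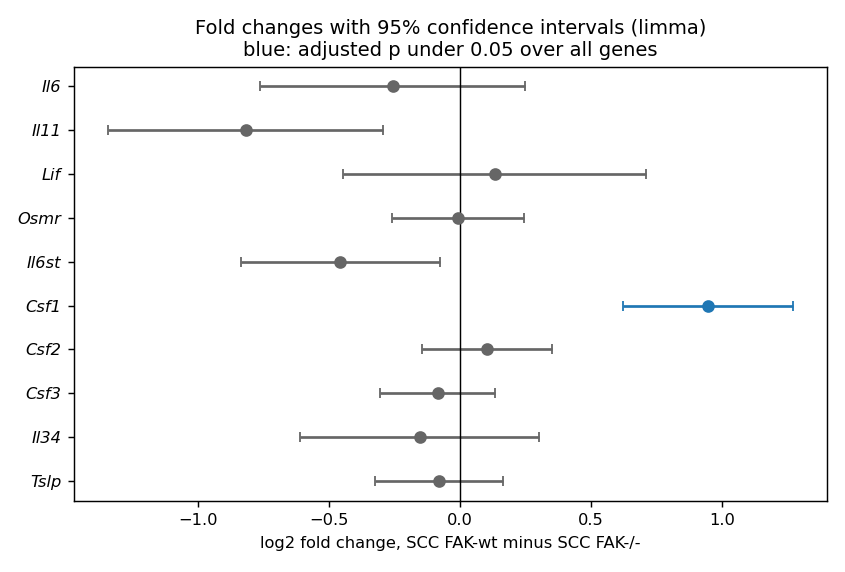
Log2 fold change of each gene (SCC FAK-wt minus SCC FAK-/-) with its 95% confidence interval from limma, blue where the adjusted p was under 0.05. The interval of Csf1 lies above 0 (0.62 to 1.27), those of Il11 (-1.35 to -0.29) and Il6st (-0.84 to -0.08) lie below 0 although neither gene passed the adjusted threshold, and the other 7 include 0.

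The intervals set what these arrays can say of the 7 genes whose interval included 0. A 2-fold difference lay outside the interval for each of them, the widest being that of Lif, from 0.734-fold to 1.63-fold, although compression of dim signals is not covered by these intervals. For Csf2, Csf3, Osmr and Tslp the intervals were narrower, from 0.799-fold to 1.28-fold at their extremes. Adjusted p-values of Csf1, Il11 and Il6st under each setting are plotted side by side.

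**Figure D3:**
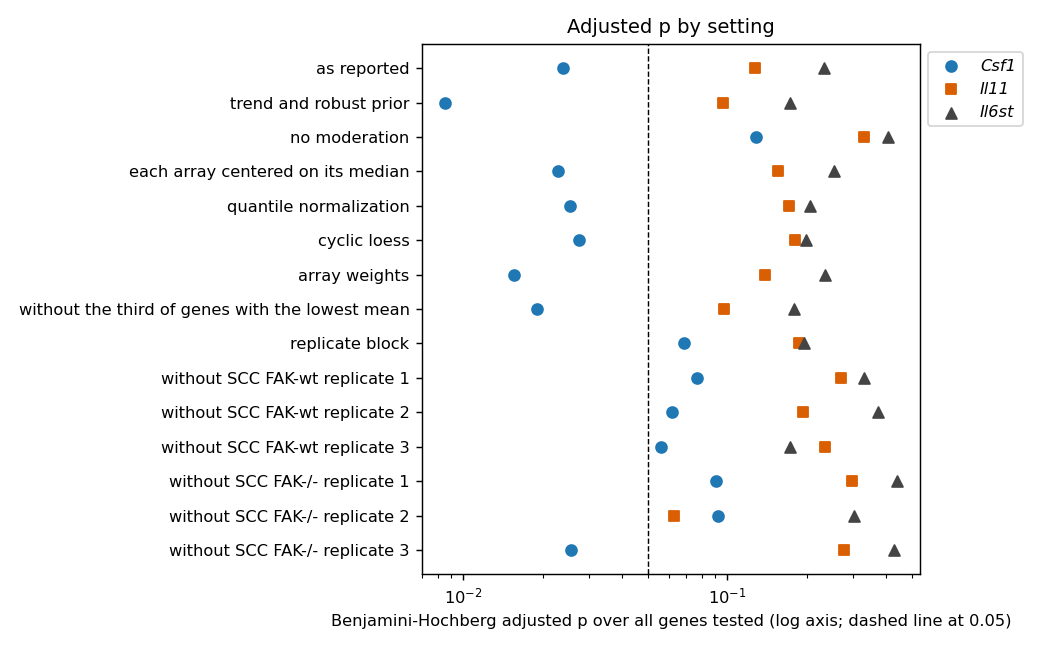
Benjamini-Hochberg adjusted p (log axis) of Csf1, Il11 and Il6st as reported and under 14 alternative settings, with a dashed line at 0.05. Csf1 lies below the line as reported and in 7 alternatives, and Il11 and Il6st lie above it in every setting shown.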

How the data were processed

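RNA of 3 SCC FAK-wt and 3 SCC FAK-/- samples was labelled from 50 ng of total RNA and hybridized to 1 array each. The authors made 1 RMA value per Ensembl identifier and array with the Bioconductor package affy, and the range of the deposited values shows a log2 scale. The versions of the package and of the probe mapping are not given in the sources used here. RMA equalizes array distributions and can compress changes of dim genes. Samples were grouped by their titles.

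All 17204 genes were tested for cell line alone with limma 3.58.1 under R 4.3.3 (lmFit, then eBayes, two-sided), with Benjamini-Hochberg adjustment over them. "Rose" and "fell" are used at an adjusted p under 0.05. The test was checked on simulated data, where, for SCC FAK-wt against SCC FAK-/- over 17204 genes, it called 87.5% of 200 genes given a 1-unit log2 change. The simulated noise was normal, independent between arrays and set to the gene variances that limma itself estimated. That share checks the code and is not the chance of finding a 1-unit change on the real arrays. Array data have no read depth, and 3 arrays per line limit the precision.

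The rule for naming genes was all 10 members, together with genes from lists of receptors, JAK-STAT signaling, STAT3 targets, cell markers and FAK itself. Those lists (77 genes) are not analysed here because their identifiers were not paired with symbols. The members and lists were chosen with earlier results of these data known, and the pairs of members, and which promoters to print beyond that of Csf1, after seeing the values. Alternatives were another prior or none, 3 further scalings, array weights, no dim genes, a replicate block, leaving out each array and a minimum change of 1.5-fold.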

Additional observations from a re-analysis of the deposited data

How the results depend on the processing

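The single member higher at an adjusted p under 0.05, Csf1, was called under the trend and robust prior, the 3 scalings, array weights, the filter on dim genes and a minimum change of 1.5-fold. The count was 0 without moderation, 0 with the replicate block and 0 to 1 with an array left out, where it was 1 only without SCC FAK-/- replicate 3. These fits have fewer samples or residual degrees of freedom, or borrow no variance across genes, but whether that accounts for the lost calls was not tested. The fit without SCC FAK-/- replicate 3, which kept the call, left out the SCC FAK-/- array nearest to the other line. Its log2 fold change of Csf1 was 1.07, with a standard error of 0.12. In the other fits with an array left out these were 0.87 to 0.98 and 0.15 to 0.16. Csf1 kept its direction and an unadjusted p under 0.01 in all 14 alternatives that refit the model (limma, or a linear model per gene). The single member lower at an unadjusted p under 0.01, Il11, became 0 without moderation, 0 after centering each array on its median, 0 after quantile normalization, 0 after cyclic loess, 0 with the replicate block and 0 to 1 with an array left out, where it was 1 without SCC FAK-/- replicate 2 and, through Il6st, without SCC FAK-wt replicate 3. The cause was not tested for the scalings, under which the log2 fold change of Il11 was -0.79, -0.81 and -0.83. No member was lower at an adjusted p under 0.05 in any alternative.

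The sign of 3 members turned in some alternatives. Osmr went from -0.01 to 0.024 after centering each array, and to -0.067 to 0.038 with an array left out. Lif was -0.086 to 0.40 and Il34 -0.29 to 0.00063 with an array left out. With the replicate block the log2 fold changes were unchanged by construction and the adjusted p was 0.0687 for Csf1, 0.187 for Il11 and 0.195 for Il6st. The deviations from the line means had r of only -0.0338 to 0.028 over genes between arrays of the same number, and the arrays were treated as sharing only a number. The filter on dim genes removed 5 members, which have no value under it. The signal of those 5 members, below the lower quartile, limits what can be said of them.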
